A study of Homo sapiens with 12 samples.

Results

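The Notch genes of HepG2, a cell line from a human liver cancer, were followed through RNA sequencing of 12 libraries in which the enzyme TST was silenced, overexpressed or left alone. The set held 10 genes of the 57500 in the count files: the receptors NOTCH1, NOTCH2 and NOTCH3, the ligands JAG1 and JAG2, the target genes HES1, HES4, HEY1 and NRARP, and the DNA-binding factor RBPJ. They were chosen by name, and NOTCH2 was put at the centre because it was low with TST overexpression in these same libraries. TST, also called rhodanese, is a mitochondrial sulfurtransferase that converts cyanide to thiocyanate. The 3 groups held 4 libraries each. WT were control HepG2 cells, shTST were HepG2 cells stably transduced with a commercial shRNA plasmid against TST, and overTST, called OE-TST here, were HepG2 cells stably transduced with a lentiviral vector. That vector carried a codon-optimized, Myc-tagged TST sequence under the CMV promoter and a blasticidin resistance gene. No group is described as carrying an empty vector or a control shRNA. Changes due to TST therefore cannot be told apart from those due to transduction and selection. All cells were grown in medium containing glycine. As far as the labels tell, each engineered group is a single stable line, and the libraries of a group are numbered without a note on separate cultures, so that p-values measure the spread between these libraries, which may be technical.

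Notch receptors are single-pass membrane proteins that receive signals from neighbouring cells. A ligand of the Jagged or Delta family on one cell binds the receptor on the next, ADAM10 or ADAM17 then cuts the receptor outside the membrane, and the gamma-secretase complex frees its intracellular domain. That domain enters the nucleus and joins RBPJ and a Mastermind protein on DNA, where it switches on HES and HEY genes, which encode transcriptional repressors, and NRARP, whose product limits the signal in return. In the liver the pathway is known for directing progenitor cells towards bile duct fate, with JAG1 and NOTCH2 as the pair mutated in Alagille syndrome.

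Library totals ranged from 28866175 to 45120508 counts in WT, from 27527854 to 33865386 in shTST and from 22911380 to 27414142 in OE-TST, so that low genes were measured least precisely with OE-TST. Native TST gave 47.2, 47.5, 52.8 and 48.5 CPM, the counts as a rate per library after scaling, in WT replicates 1 to 4, and 33.0, 33.5, 36.5 and 33.5 with shTST. It gave 51.8, 56.0, 61.6 and 62.1 CPM with OE-TST. The codon-optimized transgene need not be counted on the native gene, so the last values do not measure the dose of the vector. Native TST fell by 0.52 on the log2 scale with shTST (adjusted p = 3.2e-06, edgeR), and it rose by 0.24 in the OE-TST line (adjusted p = 0.00384, edgeR). All 6 hepatocyte and HepG2 markers checked were present, with summed levels of 13580 to 18830 CPM over the 12 libraries. With shTST, ALB (log2 fold change 0.39) and AFP (0.49) rose and TTR fell (−0.33). With OE-TST, APOA1 (0.24) and TTR (0.16) rose and HNF4A fell (−0.15). These were all the markers of this list that edgeR called in the comparisons with WT. The 4 endothelial markers summed to 2.51 to 3.29 CPM in WT, 1.81 to 2.16 with shTST and 3.39 to 3.91 with OE-TST, without overlap and with KDR at 0 in every library. With OE-TST PECAM1 rose (0.60, edgeR adjusted p = 0.00278) and CDH5 fell (−1.31, edgeR adjusted p = 0.0129). These markers were low throughout, and the 3 leukocyte markers summed to 1.14 to 2.498 CPM. The 4 fibroblast and stellate markers summed to 21.5 to 25.2 CPM in WT, 17.0 to 19.4 with shTST and 15.9 to 17.9 with OE-TST. Most of that sum was PDGFRB, with means of 21.8, 16.6 and 16.3 CPM in the same order, while COL1A1 had means of 1.28, 1.40 and 0.925 CPM. Counts on mitochondrially encoded genes took 6.91% to 11.98% of WT libraries, 6.84% to 8.65% of shTST and 10.8% to 11.7% of OE-TST libraries. The part of these values in the levels below was not tested.

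The members differ widely in size and place, which matters here because fold changes with OE-TST followed gene length. In the coordinates of the files (GRCh38), NOTCH2 lies on the minus strand at chr1:119911553-120069626 and has the longest exonic length of the 10, 16804 bases. NOTCH1 (chr9:136494444-136545862, minus strand, 9880 bases) and NOTCH3 (chr19:15159038-15200981, minus strand, 9394 bases) are similar to each other in length. RBPJ (chr4:26163455-26435131, plus strand) has 9253 exonic bases, JAG1 (chr20:10637684-10674107, minus strand) 8534 and JAG2 (chr14:105140981-105168824, minus strand) 6397. The 4 target genes are short, with 3232 bases for HEY1 (chr8:79764010-79767863, minus strand), 2062 for HES1 (chr3:194136145-194138732, plus strand), 1770 for NRARP (chr9:137300482-137302251, minus strand) and 1118 for HES4 (chr1:998962-1000172, minus strand). NRARP consists of 1 exon block, against 37 for NOTCH2.

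Of NOTCH2's 11290 windows of 100 bases in its longest transcript, 1.82% also occurred in a transcript of another gene, among them NOTCH2NLA with 1.45%. NOTCH2NLA, a partial copy of NOTCH2 on the same chromosome, had 4 to 13 counts per library, and how reads matching both genes were counted is not given in the sources used here. JAG2 shared 6.47% of its windows with the overlapping transcript AL512356.1, which had no count in any library. JAG1 shares 79 exonic bases with the antisense gene AL050403.2, which had 0 to 3 counts. The other 7 members shared no window and no exon with another gene.

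Promoter sequence was taken from RefSeq (GRCh38.p14) for the 9 members with an entry, all but HEY1, as the 250 bases before each annotated start. It was searched on both strands for GTGGGAA, the core letters that RBPJ prefers. HES1 and HES4, both of which encode basic helix-loop-helix repressors, held the letters once each, 79 and 71 bases before the start. NRARP, the target that was higher with shTST, held none. The sequences of HES1 and HES4 are given from 90 bases before the match to 20 bases after it, and that of NRARP whole, all 5′ to 3′ on the strand of the gene, with the match in capitals.
HES1: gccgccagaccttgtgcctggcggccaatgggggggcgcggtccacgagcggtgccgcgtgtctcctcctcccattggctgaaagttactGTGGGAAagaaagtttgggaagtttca
HES4: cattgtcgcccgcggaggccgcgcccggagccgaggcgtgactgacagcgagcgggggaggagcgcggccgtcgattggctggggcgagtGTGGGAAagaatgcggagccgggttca
NRARP: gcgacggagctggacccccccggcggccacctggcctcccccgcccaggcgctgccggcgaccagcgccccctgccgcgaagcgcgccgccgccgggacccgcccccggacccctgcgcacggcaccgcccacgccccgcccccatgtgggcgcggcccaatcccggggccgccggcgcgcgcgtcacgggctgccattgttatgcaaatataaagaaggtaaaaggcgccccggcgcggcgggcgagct
These are chr3:194135973-194136089 on the plus strand, chr1:1000148-1000264 on the minus strand and chr9:137302272-137302521 on the minus strand. RefSeq places the HES4 start inside the gene as the count files bound it, so the end of its stretch lies in the counted gene. The letters GTGGGAA occurred in 5.43% of all 35116 promoter windows of this length. RBPJ itself held 2 matches in 1 of its 5 annotated windows, and NOTCH1, NOTCH2, NOTCH3, JAG1 and JAG2 held none. Such a match is a run of letters, not a measured binding site. CACNAG, an N box, was found 3 times before HES1 and once each before NOTCH3 and RBPJ, and in 32.0% of all windows.

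Compared per length, as CPM per kilobase of exon (RPKM), the targets HES1 and HES4 and the ligand JAG1 led the set in WT cells. HES1 stood at 15.8 ± 1.90 RPKM and HES4 at 14.8 ± 1.45 (SD, n = 4), and their ranges overlapped. JAG1 followed at 9.76 ± 1.58, RBPJ at 3.46 ± 0.0850 and NRARP at 1.87 ± 0.131 RPKM, each range clear of its neighbours in the order. NOTCH2 at 1.36 ± 0.143 and HEY1 at 1.22 ± 0.314 RPKM overlapped. NOTCH1 was far lower at 0.216 ± 0.0225, and NOTCH3 at 0.0508 ± 0.0178 and JAG2 at 0.0397 ± 0.0161 RPKM overlapped at the bottom. The order was the same with shTST, where NOTCH2 at 1.23 and HEY1 at 0.763 RPKM no longer overlapped. With OE-TST the pair had changed places, HEY1 standing at 1.49 ± 0.112 and NOTCH2 at 0.720 ± 0.112 RPKM without overlap. HES4 and HES1 also changed places with OE-TST, at 17.6 and 17.3 RPKM with overlapping ranges. These levels use the exonic length of all transcripts of a gene together. For NOTCH2 that is 16804 bases, while its longest transcript has 11389, and for NRARP both are 1770. The order of NOTCH2 and NRARP may thus depend on the length used.

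**Figure D1:**
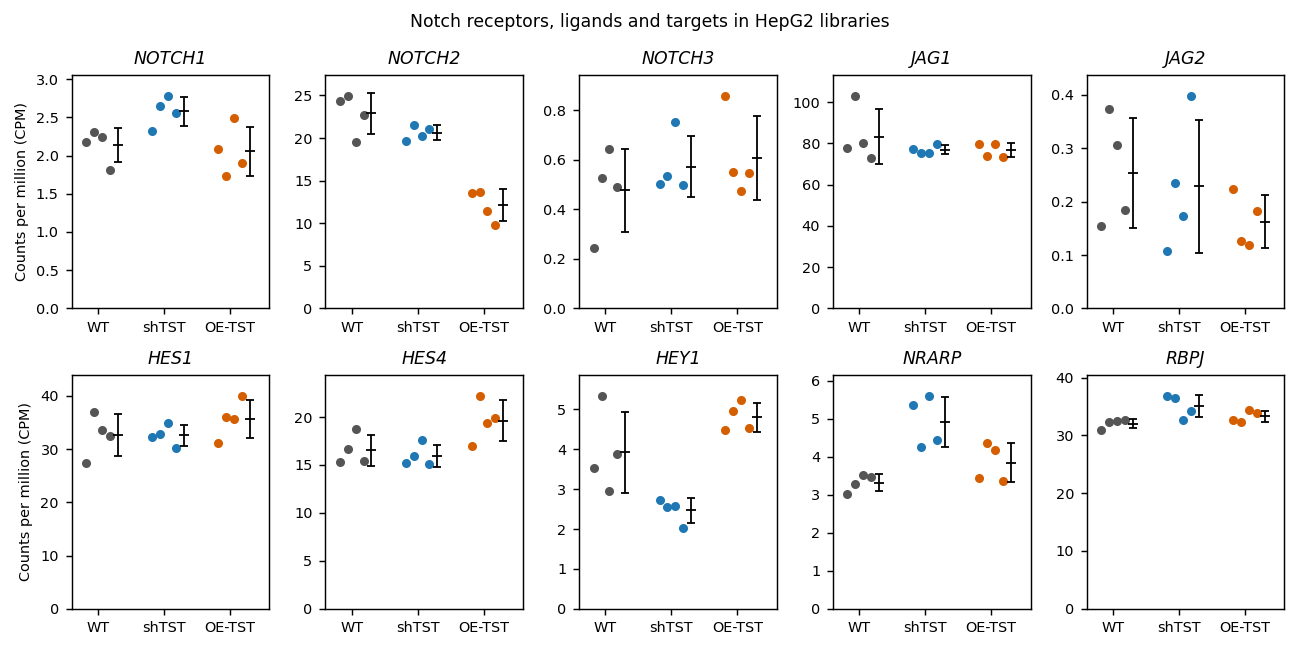
Level of each of the 10 members in CPM (vertical axes, each from 0) in the 4 libraries of WT, shTST and OE-TST, 1 point per library, with the mean and SD beside the points. NOTCH2 lies at 9.77 to 13.7 CPM in all OE-TST libraries and at 19.6 or above in the others, HEY1 is lowest and NRARP highest with shTST.

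Among the receptors, NOTCH2 was low in the OE-TST libraries and overlapped between the other groups. It measured 24.3, 24.95, 19.6 and 22.7 CPM in WT, 19.6, 21.6, 20.2 and 21.1 CPM with shTST, and 13.6, 13.7, 11.4 and 9.77 CPM with OE-TST. Every OE-TST library lay below every WT and shTST library, while the ranges of WT and shTST overlapped. The log2 fold change of OE-TST against WT was −0.92 (SE 0.096), a level 0.529 times that of WT. This is the value NOTCH2 was chosen for and is given as a description without a test. With shTST the log2 fold change was −0.15 (SE 0.072), also given without a test, since the choice used the same WT libraries. It was −0.22 without WT replicate 3, the lowest WT library.

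NOTCH1, the receptor best known from T-cell leukaemia, measured 2.18, 2.30, 2.24 and 1.81 CPM in WT. It reached 2.32, 2.64, 2.78 and 2.55 CPM with shTST, all above WT, and 2.09, 1.74, 2.49 and 1.91 CPM with OE-TST, which overlapped WT. With shTST its log2 fold change was 0.27 (SE 0.15, adjusted p = 0.227), short of the threshold. That with OE-TST was −0.053 (SE 0.17). NOTCH3, known for its role in vascular smooth muscle, was at 0.246 to 0.645 CPM in WT, 0.497 to 0.753 with shTST and 0.473 to 0.858 with OE-TST. These ranges overlapped, and its log2 fold change of 0.27 with shTST (SE 0.31, adjusted p = 0.601) had the widest error of the members tested.

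As shares of the summed RPKM of the 3 receptors, NOTCH2 made up 83.5% ± 2.61 in WT, 79.3% ± 1.57 with shTST and 72.4% ± 3.85 with OE-TST (SD, n = 4). The NOTCH1 share was 13.3% ± 1.65, 16.8% ± 0.789 and 21.2% ± 4.01 in the same order. NOTCH2 was thus the main transcript of these 3 receptors in every library, with a share of at least 69.2%. The receptor NOTCH4, outside the set, is left out of these shares. Its mean was 0.103 RPKM in WT, 0.111 with shTST and 0.0863 with OE-TST, above that of NOTCH3 in each group. The WT and shTST shares of NOTCH2 overlapped, from 79.8% to 85.4% and from 76.9% to 80.2%. The OE-TST shares, from 69.2% to 77.6%, lay below those of WT, as the low NOTCH2 values entail.

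**Figure D2:**
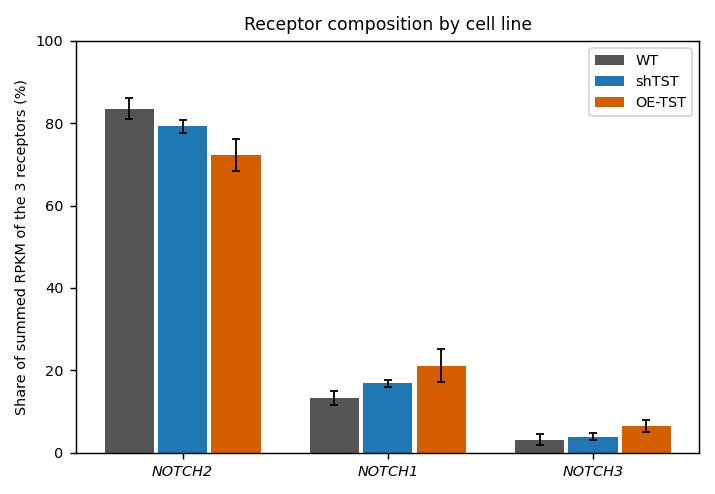
Share of each receptor in the summed RPKM of NOTCH1, NOTCH2 and NOTCH3 (percent, vertical axis from 0 to 100) in WT, shTST and OE-TST, bars for the mean and whiskers for the SD of 4 libraries. NOTCH2 holds most of the sum in each group, from 83.5% in WT to 72.4% with OE-TST.

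Of the ligands, JAG1, the main Notch ligand of the liver, had overlapping ranges in all 3 groups. It measured 77.5, 103, 79.9 and 72.8 CPM in WT, 77.1, 75.4, 75.3 and 79.9 with shTST, and 79.6, 74.0, 79.7 and 73.6 with OE-TST. WT replicate 2 stood above the other 11 libraries, which lay between 72.8 and 79.9 CPM. JAG1 had a log2 fold change with shTST of −0.12 (SE 0.073, adjusted p = 0.293), which was 0.0035 without WT replicate 2. That with OE-TST was −0.12 (SE 0.075), and −0.00095 without WT replicate 2. JAG2, a ligand of the same family, had 3 to 17 counts per library, did not pass the count filter in any comparison and was tested only where the filter was left out.

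The 4 target genes did not move as a group with shTST. HEY1 fell, NRARP rose, and HES1 and HES4 did not pass the test. HEY1, a repressor known from heart and vessel development, measured 3.53, 5.33, 2.95 and 3.89 CPM in WT and 2.72, 2.54, 2.58 and 2.02 with shTST. Every shTST library was below every WT library. The log2 fold change was −0.69 (SE 0.16, adjusted p = 0.00621), a level 0.619 times that of WT. WT replicate 2 held the highest value, and without it the log2 fold change was −0.49 (adjusted p = 0.0360). With OE-TST HEY1 stood at 4.48, 4.95, 5.25 and 4.54 CPM, all within the WT range and all above every shTST library. The log2 fold change against WT was 0.27 (SE 0.15), which was 0.47 when WT replicate 2 was left out and 0.16 when WT replicate 3 was, and that of shTST against OE-TST was −0.96 (SE 0.16).

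NRARP, a small ankyrin-repeat protein that binds the Notch intracellular domain together with RBPJ and promotes loss of the signal, measured 3.01, 3.27, 3.53 and 3.46 CPM in WT. With shTST it reached 5.36, 4.25, 5.59 and 4.44 CPM, all above WT. It rose with a log2 fold change of 0.57 (SE 0.12, adjusted p = 0.00330), 1.48 times the WT level. With OE-TST it measured 3.43, 4.36, 4.18 and 3.36 CPM, which overlapped both other groups, and its log2 fold change against WT was 0.21 (SE 0.14). NRARP and HEY1 kept their calls in shTST against WT in all 20 alternatives, with adjusted p-values of 0.000435 to 0.0164 for NRARP and of 3.37e-05 to 0.0360 for HEY1.

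HES1, the target gene used most widely as a readout of Notch, measured 27.5, 37.0, 33.5 and 32.5 CPM in WT and 32.4, 32.8, 34.9 and 30.3 with shTST. With OE-TST it was at 31.1, 36.0, 35.7 and 40.0 CPM. All 3 groups overlapped. The log2 fold change with shTST was −0.0034 (SE 0.072, adjusted p = 0.983) and that with OE-TST 0.13 (SE 0.080). HES4, a related repressor absent from the mouse genome, measured 15.3, 16.7, 18.8 and 15.4 CPM in WT and 15.2, 15.9, 17.6 and 15.1 with shTST, with a log2 fold change of −0.051 (SE 0.077, adjusted p = 0.711). With OE-TST it was at 17.0, 22.2, 19.4 and 19.9 CPM, overlapping WT at its lowest library, and its log2 fold change was 0.25 (SE 0.085).

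RBPJ, which holds target genes silent with corepressors until the Notch domain arrives, lay in a narrow range of levels. It measured 30.9, 32.2, 32.4 and 32.6 CPM in WT, 36.8, 36.5, 32.7 and 34.3 with shTST and 32.6, 32.3, 34.4 and 33.9 with OE-TST. All shTST libraries lay above WT, though the closest pair differed by little. Its log2 fold change of 0.13 with shTST (SE 0.056, adjusted p = 0.115) did not pass, and that with OE-TST was 0.055 (SE 0.059).

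**Figure D3:**
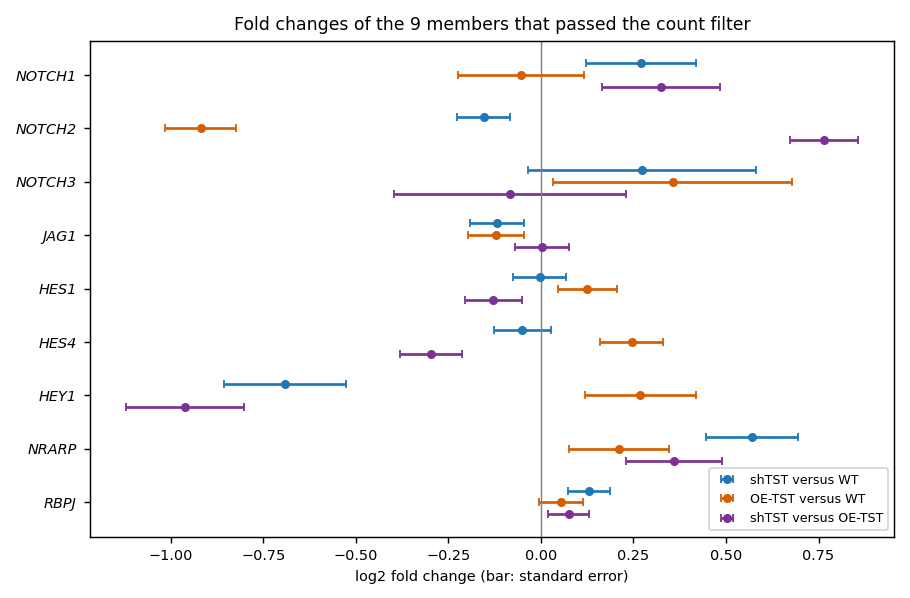
log2 fold change (horizontal axis) of the 9 members that passed the count filter, with bars for the standard error, in shTST against WT, OE-TST against WT and shTST against OE-TST. NOTCH2 has the lowest value against WT with OE-TST, −0.92, while HEY1 at −0.69 and NRARP at 0.57 lie farthest from 0 with shTST.

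In shTST against WT, 9 of the 10 members were tested, and 1 was called higher and 1 lower at an adjusted p of 0.05. Over all 14584 genes tested, 16.1% were called, 6.69% higher and 9.40% lower, so the members' count was near the background. The groups did not overlap for NOTCH1, NRARP and RBPJ, which were higher, and for HEY1, which was lower, beside 19.1% of all genes tested, 8.37% higher and 10.8% lower. In OE-TST against WT, 1 of 9 was called higher, HES4, and 1 lower, NOTCH2, beside 33.9% of 14421 genes, 15.7% higher and 18.2% lower. HES4 was not called in 5 of the 8 fits that each left out 1 library. NOTCH2 alone had no overlap there, beside 30.4% of all genes, 14.2% higher and 16.2% lower. In shTST against OE-TST, 2 of 9 were called higher, NOTCH2 and NRARP, and 2 lower, HES4 and HEY1, beside 33.0% of 14883 genes, 16.9% higher and 16.1% lower. The groups did not overlap for NOTCH2, which was higher with shTST, and HEY1, which was lower, beside 29.2% of all genes, 14.5% higher and 14.7% lower. Nothing is read from the counts of OE-TST against WT or of shTST against OE-TST. NOTCH2 was chosen on the OE-TST libraries, so its call in them was set by that choice. Both comparisons with WT share the 4 WT libraries, and the direct comparison shares its libraries with both. The direct log2 fold change of shTST against OE-TST was 0.76 for NOTCH2 (SE 0.092), 0.36 for NRARP (SE 0.13), 0.32 for NOTCH1 (SE 0.16) and −0.30 for HES4 (SE 0.084). It was 0.0031 for JAG1, 0.075 for RBPJ, −0.084 for NOTCH3 and −0.13 for HES1.

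The fold changes were read beside exonic length. Genes within 20% of each member's length were taken as its neighbours. The neighbours' median with OE-TST went from 0.21 at the length of HES4 and 0.16 at that of NRARP to −0.11 at JAG1, −0.14 at NOTCH1 and −0.19 at NOTCH2. HES4 at 0.25 was above 57.8% of its 524 neighbours, NRARP at 0.21 above 58.4% of 1149, and JAG1 at −0.12 above 48.5% of 2427. NOTCH3, on few counts, was at 0.36 above 96.7% of 2059. Of the 382 neighbours of NOTCH2, 47.4% were called lower. NOTCH2 itself was at −0.92, the value it was chosen for. A correction for length within each library moved NOTCH2 to −0.71, HES4 to 0.067, NRARP to 0.054 and RBPJ to 0.19. It turned HES1 from 0.13 to −0.013, NOTCH1 from −0.053 to 0.093 and JAG1 from −0.12 to 0.00090. The member called higher was then RBPJ in place of HES4.

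With shTST the neighbours' medians stayed between −0.020 and 0.049 at the lengths of the 9 members. HEY1 at −0.69 was above 0.754% of its 2652 neighbours, whose central 95% ran from −0.49 to 0.53. NRARP at 0.57 was above 96.9% of its 1167 neighbours, with a central 95% from −0.48 to 0.61. The length correction left HEY1 at −0.70 and NRARP at 0.55, both still called.

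**Figure D4:**
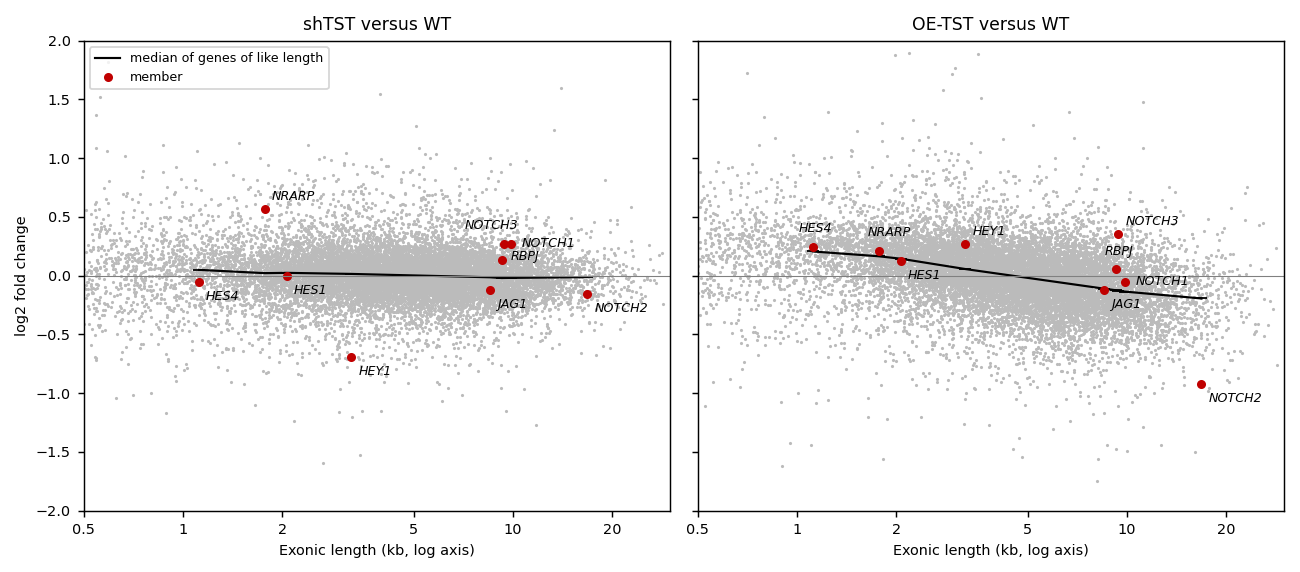
log2 fold change (vertical axis) against exonic length in kilobases (horizontal log axis) for shTST against WT and OE-TST against WT. Grey points are all genes tested within the axes, red points are the members, and the black line joins the median of the genes of like length at each member. With OE-TST the line falls from 0.21 at HES4 to −0.19 at NOTCH2, and NOTCH2, chosen for its value here, is at −0.92.

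The wider pathway was read from 76 further genes sorted by role, of which 72 were in the files. With shTST 61 were tested, 1 rose and 5 fell, and their median log2 fold change of 0.0051 was close to the 0.0040 of all genes. Over all genes, 6.69% were called higher and 9.40% lower in this comparison. FBXW7, the ubiquitin ligase subunit that marks the Notch intracellular domain for destruction, rose from 7.55 ± 0.471 CPM in WT to 10.3 ± 0.798 (SD, n = 4; log2 fold change 0.44, adjusted p = 0.00170). MAML2, a Mastermind coactivator, fell (−0.48, adjusted p = 0.00418), with WT at 9.47 to 14.8 and shTST at 7.99 to 9.95 CPM. FURIN, the convertase that cleaves the receptor on its way to the surface, fell (−0.27, adjusted p = 0.00190). The ligand-activating ubiquitin ligase MIB2 fell (−0.25, adjusted p = 0.00505), and so did the fringe glycosyltransferase RFNG (−0.18, adjusted p = 0.0221). By role the named genes were 1 of 9 proteases, 2 of 13 ubiquitination genes, 1 of 7 coactivators and 1 of 11 glycosyltransferases tested. None of the 4 further ligands, of the 2 other HES and HEY genes or the receptor NOTCH4 passed in edgeR's test. The WT and shTST ranges overlapped for MAML2 and RFNG.

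With OE-TST 60 of the further genes were tested, 6 rose and 16 fell, with a median log2 fold change of −0.037 against 0.0019 for all genes. Of all genes tested, 15.7% were called higher and 18.2% lower. After the length correction 10 were higher and 9 lower. Beside that background, 3 of 7 coactivators fell and none rose, and nothing particular to this list is read from so few genes. They were MAML2 (−0.62, adjusted p = 0.000371), the acetyltransferase EP300 (−0.42, adjusted p = 4.3e-05) and its close relative CREBBP (−0.36, adjusted p = 0.000204). EP300 went from 111 ± 14.2 CPM in WT to 82.9 ± 3.50 (SD, n = 4). These 3 genes stayed lower and called after the length correction, at −0.53, −0.24 and −0.16. Of 13 corepressors 5 fell and 3 rose. SPEN, a large RBPJ corepressor, fell (−0.48, adjusted p = 1.5e-05), as did TLE3 of the Groucho family (−0.61, adjusted p = 1.9e-05), while the short family member TLE5 rose (0.29, adjusted p = 0.000113).

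Of the 9 proteases of the receptor tested with OE-TST, 4 fell and 2 rose, beside the 18.2% and 15.7% of all genes. ADAM17 fell (−0.39, adjusted p = 0.000365), from 21.95 ± 1.34 CPM in WT to 16.8 ± 1.34 (SD, n = 4), and ADAM10 fell (−0.28, adjusted p = 0.000513). NCSTN, the nicastrin subunit of gamma-secretase, fell (−0.24, adjusted p = 0.00267). The 2 that rose were PSEN2 and PSENEN, also gamma-secretase subunits, at 0.23 each. After the length correction ADAM17 (−0.33) and NCSTN (−0.24) were still called, and ADAM10 was not. Of 13 ubiquitination genes FBXW7 rose (0.39, adjusted p = 0.00263) and MIB1 (−0.36, adjusted p = 0.00110) and ITCH (−0.18, adjusted p = 0.0264) fell. Of 11 glycosyltransferases the xylosyltransferase GXYLT1 fell (−0.26, adjusted p = 0.0135). Of 4 further ligands DLL4 fell (−0.99, adjusted p = 0.0337), on 13 to 26 counts in WT and 4 to 13 with OE-TST. Neither NOTCH4 nor the 2 other HES and HEY genes tested, HES2 and HES6, passed in edgeR's test.

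**Figure D5:**
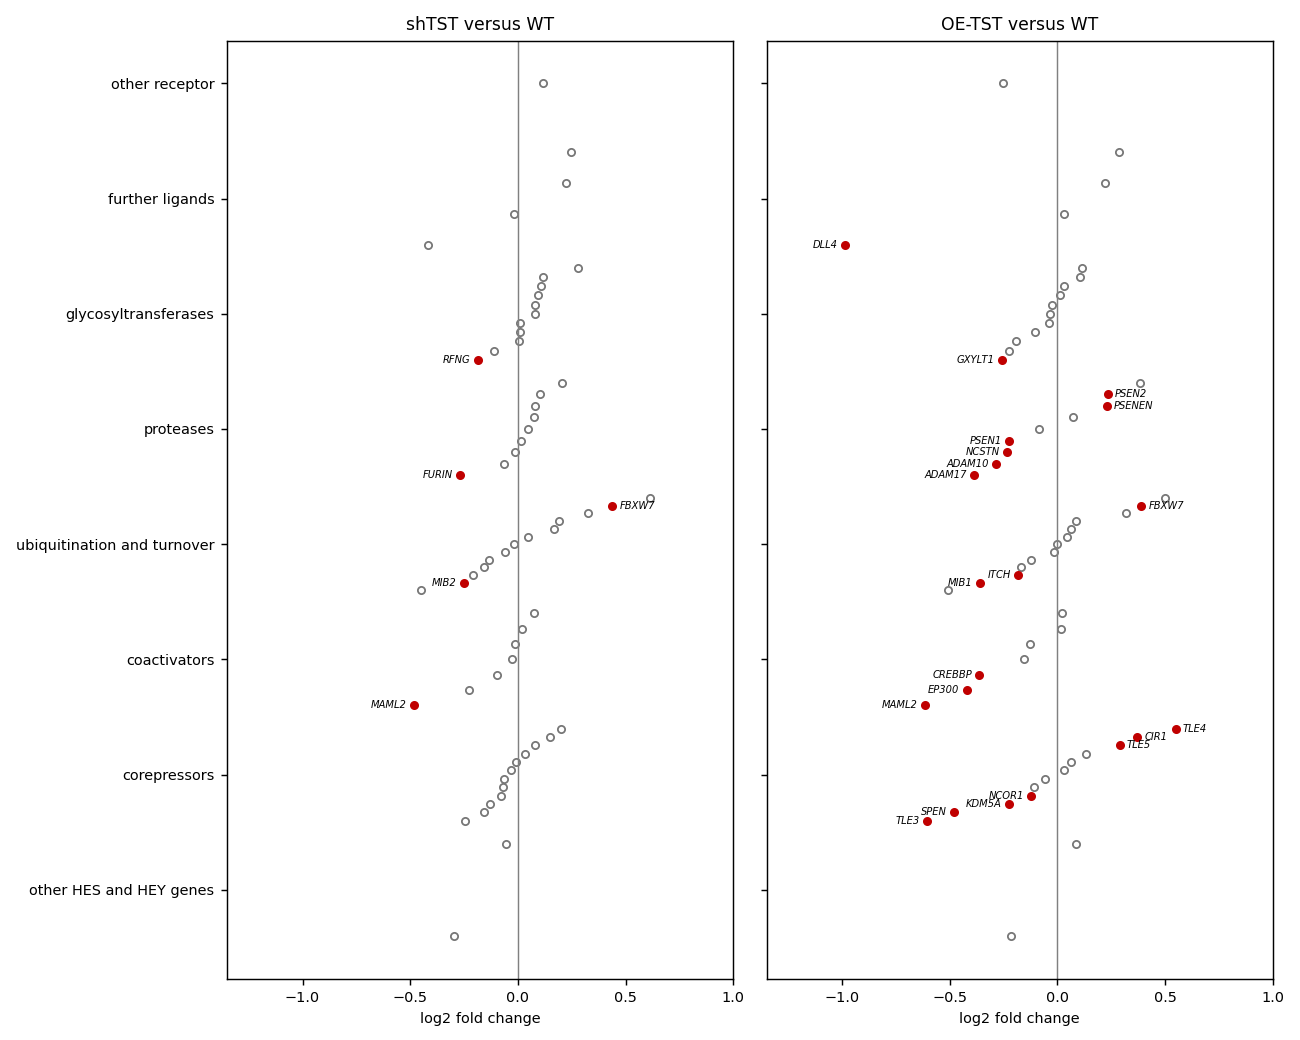
log2 fold change (horizontal axis) of the further pathway genes by role, in shTST against WT and OE-TST against WT, filled and named where the adjusted p was at most 0.05 and open otherwise. Of the genes drawn, 5 are filled with shTST and 21 with OE-TST, of which 15 lie below 0.

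The genes whose pattern over the 12 libraries was most like that of NOTCH2 were FRAS1, HUNK, TXNDC5, TANC1 and RALGAPA2. Likeness was the root mean square difference of centred log2 CPM, which was 0.0947 for FRAS1, 0.113 for HUNK, 0.117 for TXNDC5, 0.122 for TANC1 and 0.126 for RALGAPA2, against a median of 0.444 over 11527 genes. The 12 libraries include those that NOTCH2 was chosen on, so genes low with OE-TST lead this order by construction. FRAS1, an extracellular matrix protein, measured 105 ± 7.50 CPM in WT, 95.9 ± 2.87 with shTST and 56.1 ± 4.08 with OE-TST (SD, n = 4). Their exonic lengths ran from 4387 bases for TXNDC5, a disulfide isomerase, to 20379 for FRAS1. The other members, taken whatever their level, ran from 0.406 for JAG1 to 0.756 for HEY1, beside that median of 0.444. Among them, NOTCH3 and JAG2 were measured on few counts.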

How the data were processed

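Total RNA of 12 HepG2 libraries was sequenced, with 4 libraries per group named by genotype in the labels. The authors deposited whole-number read counts per Ensembl gene for each library, not normalized, with each gene's exonic length (Length, in bases). The submitters' processing notes name Trimmomatic 0.36, STAR 2.5.2b, featureCounts of Subread 1.5.2 and GRCh38. The annotation release, the use of strand and the treatment of reads matching several places are not given in the sources used here. Of 57500 gene identifiers, 56898 are in GENCODE 29, 54749 with the same start and end.

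After filterByExpr and TMM scaling, genes entered the quasi-likelihood test of edgeR 4.0.16 (R 4.3.3) with Benjamini-Hochberg adjustment at 0.05 over all genes tested. Each line was compared with WT in its own 8 libraries, and shTST with OE-TST in 1 fit of all 12. Standard errors are the log2 fold change over the square root of F. Printed CPM and RPKM use 1 scaling of all 12 libraries. Centred log2 CPM used a prior count of 2, and likeness to NOTCH2 was taken over genes with a mean log2 CPM of at least 1. That limit was not put on the members. The members, the role lists, the marker lists and the alternatives were chosen with earlier results of these data known. Since NOTCH2 was picked for its value with OE-TST, no p is printed for members in comparisons with OE-TST, nor for NOTCH2 in any. Calls of members in comparisons with OE-TST enter the counts as a description only. The named pathway genes are the 3 called genes with the smallest p of each role list in each comparison with WT. PSEN2, PSENEN, HES2 and HES6 were named after their values were seen. Of the listed pathway genes, 1 enters the counts but is not reported here by name or drawn.

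The alternatives were DESeq2 1.42.0, voom of limma 3.58.1, RLE and upper-quartile scaling, omission of the filter, a minimum above 1 CPM in 4 or more libraries, other libraries in the fit (all 12 for the comparisons with WT, 8 for the direct one), leaving the genes of the mitochondrial chromosome out, a block for the replicate number, length correction (alone and with that block) and GC correction by a lowess trend of span 0.3 in each library, and leaving out each library in turn. The edgeR, DESeq2 and voom fits of each line against WT were tested on simulated data of known fold changes. The length correction was tested on a simulated trend with length alone. Sequence windows and figures were made with Python 3.11.15, pandas 2.3.3 and matplotlib 3.10.9.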

Additional observations from a re-analysis of the deposited data

Results flagged for a closer look

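Of 33 groups of 4 libraries checked, for the 10 members and TST in 3 groups each, 2 held a library whose gap to the nearest of the others was large for the range of the group. NOTCH3 with shTST was at 0.753 CPM in replicate 3, against 0.497 to 0.536 CPM in the other shTST libraries. TST with shTST was at 36.5 CPM in the same replicate, against 33.0 to 33.5 CPM in the others. Chance alone flags about 1 group in 20.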

How the results depend on the processing

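For the members in shTST against WT, the direction and side of the threshold held in most alternatives. With shTST, HES1 (−0.0034) turned to 0.018 with upper-quartile scaling, 0.0010 with the filter of more than 1 CPM, 0.0018 without mitochondrially encoded genes and 0.0010 with the replicate number as a block, and ran from −0.077 to 0.065 when libraries were left out in turn. HES4 (−0.051) turned to 0.097 with the GC correction and ran from −0.10 to 0.015, and JAG1 (−0.12) from −0.17 to 0.0035. None of these values passed the threshold, and the cause was not tested. RBPJ with shTST passed with the length correction and the block together (0.15, adjusted p = 0.0460). The calls of HEY1 and NRARP in shTST against WT held in every alternative run. The further pathway genes called with shTST, 6 in the fit described, numbered 12 with the block, 10 with the length correction and 14 with both, and 4 (without shTST replicate 1) to 8 when libraries were left out. All genes called with shTST numbered 2346, and 1513 (without shTST replicate 1) to 2336 when 1 library was left out. Members called with OE-TST ranged from 1 to 3, and HES4 was not called without WT replicate 1 or 4 or OE-TST replicate 2, 3 or 4. The further pathway genes called with OE-TST ranged from 15 (without OE-TST replicate 2) to 25. In shTST against OE-TST the length correction moved NOTCH2 from 0.76 to 0.59, HES4 from −0.30 to −0.15, HES1 from −0.13 to −0.0047, JAG1 from 0.0031 to −0.098 and RBPJ from 0.075 to −0.040, and the GC correction moved HES4 to −0.074 and RBPJ to −0.050. NRARP there, at 0.36, was not called without shTST replicate 1 (0.32) or 3 (0.29) or OE-TST replicate 1 or 4 (0.31 each). Whether the replicate numbers pair the libraries was not settled. Same-numbered libraries deviated together with correlations of only −0.053 to 0.080. The best-correlated WT library bore the same number for shTST replicates 1, 2 and 3 and for OE-TST replicates 1 and 3, but not for the others. The block raised the genes called with shTST from 2346 to 2980 and those called with OE-TST from 4893 to 5166. No scaling shifted the median of all genes by more than 0.027 on the log2 scale. JAG2, at 3 to 17 counts, was tested only without the filter.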

Other observations

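Bile duct markers, which belong to the cell fate that Notch is known to direct in liver, were measured in these cells beside the members. Of 8 listed, 6 passed the count filter, and their sum over the list lay between 1271 and 1451 CPM in all 12 libraries. KRT19, a keratin of bile duct cells, stood at 517 ± 21.7 CPM in WT, 478 ± 47.0 with shTST and 538 ± 56.5 with OE-TST (SD, n = 4). SOX9, a transcription factor of bile duct progenitors, stood at 243 ± 6.72, 262 ± 16.8 and 260 ± 17.2 CPM in the same order. Neither passed in edgeR's comparisons with WT. With shTST EPCAM, an adhesion molecule of progenitor cells, rose (log2 fold change 0.24, adjusted p = 0.00497). With OE-TST SOX4 rose (0.46, adjusted p = 1.1e-06) and SPP1, which encodes osteopontin, fell (−0.26, adjusted p = 0.00210).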
